A study of Homo sapiens with 12 samples.

Results

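The genes of the G1 restriction point were followed after CBX7 silencing: the D-type cyclins CCND1, CCND2 and CCND3, the E-type cyclins CCNE1 and CCNE2, the kinases CDK2, CDK4 and CDK6, the retinoblastoma gene RB1, and E2F1. They were chosen by name and found by symbol, 10 of 58735 genes in the table of 786-O and 10 of 29890 genes in the table of 5637. RNA-seq was run on 12 libraries from human cancer cell lines. 786-O is a clear cell renal carcinoma line and 5637 a bladder carcinoma line, both grown in RPMI-1640 with serum. In each line, 3 libraries carry an shRNA against CBX7 (shCBX7) and 3 a control shRNA (sh control), per the sample titles. The headers of the value columns instead name the arms Si and SiNC in 5637, and si and control in 786-O. CBX7 is a chromobox protein of the Polycomb repressive complex PRC1, which holds its target genes silent. The labels name no hairpin sequence, no clone and no time after transduction, and no label tells whether the 3 libraries of each arm are separate cultures, so p-values measure the spread between these libraries.

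In G1, D cyclins bind CDK4 or CDK6 and E cyclins bind CDK2, and these kinases phosphorylate the RB1 protein. Phosphorylated RB1 releases E2F factors, E2F1 among them, which switch on the genes of DNA synthesis, and CCNE1 and E2F1 are themselves E2F targets. CDK inhibitors of the CIP/KIP and INK4 families hold the kinases back. 5637 is widely used as a bladder line that lacks functional RB1 protein, and 786-O as a renal line that lacks functional VHL.

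Values are FPKM, fragments per kilobase of gene scaled to a total per library, which allows levels to be set against each other between genes of different length. The reads recovered over listed genes numbered 16384151 to 18868874 per library in 786-O and 17744835 to 29198095 in 5637. In 786-O the scaling total was not the plain read total. For sh control library 1 the values imply a total of 16693519, below its 16961808 recovered reads. Changes are differences in log2(FPKM + 1), shCBX7 minus sh control, tested by limma within each line and called at a Benjamini-Hochberg adjusted p under 0.05 over all genes tested. This scale understates the change of genes with low FPKM. Libraries of the same arm correlated at 0.991 to 0.993 in 786-O and 0.995 to 0.996 in 5637, and libraries of different arms at 0.964 to 0.965 and 0.989 to 0.991. All 9 bladder epithelium markers averaged at least 1 FPKM in 5637. In 786-O this held for 5 of 7 renal tubule markers, PAX8 at 30.1 to 39.6 FPKM among them, while PAX2 and CA9 averaged less and the basal keratin KRT5 was listed at 0 in every library. PAX8 stood at 30.1 to 30.8 FPKM with shCBX7 there, against 36.9 to 39.6 FPKM in sh control cells. CDH6 (7.17 to 7.91 FPKM against 13.0 to 13.8 FPKM) and PAX2 were also lower with shCBX7. CDH2 (77.8 to 82.7 FPKM against 59.3 to 64.0 FPKM) and LHX1 were higher, and the renal tubule sums of the arms overlapped. In 5637 the renal tubule sum was 20.8 to 21.5 FPKM with shCBX7, against 22.4 to 23.2 FPKM in sh control cells. The leukocyte markers PTPRC and CD3E were listed at 0 in every 786-O library and reached at most 0.0121 FPKM in 5637. The summed leukocyte list was nevertheless lower with shCBX7, at 8.48 to 9.69 FPKM against 16.5 to 20.7 FPKM in sh control 786-O cells, and its level came mostly from LAPTM5. In 5637 that sum was 39.0 to 39.6 FPKM with shCBX7, against 44.1 to 46.1 FPKM in sh control cells. The sum of the bladder epithelium list was higher with shCBX7 in both lines. In 786-O it was 239 to 259 FPKM against 169 to 201 FPKM in sh control cells, mostly the simple keratins KRT8 and KRT18. In 5637 it was 1170 to 1210 FPKM against 941 to 953 FPKM in sh control cells, mostly the keratins KRT5, KRT7 and KRT17. KRT5 stood at 263 to 267 FPKM there, against 187 to 191 FPKM. Not all members rose. EPCAM was lower with shCBX7 in 5637 (56.7 to 57.1 FPKM against 58.9 to 62.0 FPKM), and GATA3 in 786-O (0.436 to 0.653 FPKM against 0.785 to 0.97 FPKM). The fibroblast list summed to 2.91 to 3.44 FPKM with shCBX7 against 2.12 to 2.58 FPKM in sh control 786-O cells, mostly LUM. COL1A1 went the other way there, at 0.134 to 0.172 FPKM with shCBX7 against 0.294 to 0.348 FPKM in sh control cells. For 5637 the fibroblast sum was 12.5 to 13.3 FPKM with shCBX7 against 14.6 to 15.2 FPKM in sh control cells, mostly COL1A1. The part of these marker differences in the results was not tested. In bulk RNA, fewer cells in a state and less RNA per cell cannot be told apart.

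CBX7, the targeted gene, was lower with shCBX7 in both lines. The 786-O libraries gave 1.01, 0.892 and 1.07 FPKM with shCBX7, against 1.63, 1.75 and 1.49 FPKM in sh control cells. The 5637 libraries gave 1.86, 1.80 and 1.97 FPKM with shCBX7, against 2.19, 2.17 and 2.42 FPKM in sh control cells. The arms did not overlap in either line, and the mean with shCBX7 was 61.0% of the sh control mean in 786-O and 83.3% in 5637. The log2 change was -0.40 in 786-O (SE 0.0762, limma adjusted p = 0.00364) and -0.18 in 5637 (SE 0.0462, limma adjusted p = 0.0188). In 5637 the call ended without shCBX7 library 2 (limma adjusted p = 0.0608) or without sh control library 3 (limma adjusted p = 0.0586).

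In 786-O, 5 of the 9 tested G1 genes fell with shCBX7: CCND1, CCND3, CCNE1, CDK2 and CDK4. Over all genes, limma called 51.0% in 786-O, 24.7% higher and 26.2% lower. The count of 5 of 9 called is therefore near the background, while all 5 were lower. No tested G1 gene was called higher, at an unadjusted p under 0.05 also 0, and 0 by voom on recovered reads. The median log2 change of the 9 genes was -0.42, against -0.01 for all 13220 genes tested. In 5637, 3 of 9 rose (CCND1, CDK4 and CDK6) and 1 fell (CDK2), where limma called 44.5% of all genes, 24.4% higher and 20.2% lower. That count is also near the background, and the median log2 change of the 9 genes was 0.00, against 0.01 for all 12689 genes tested. CCND2 lay under the mean of 0.5 FPKM needed for a test in both lines.

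**Figure D1:**
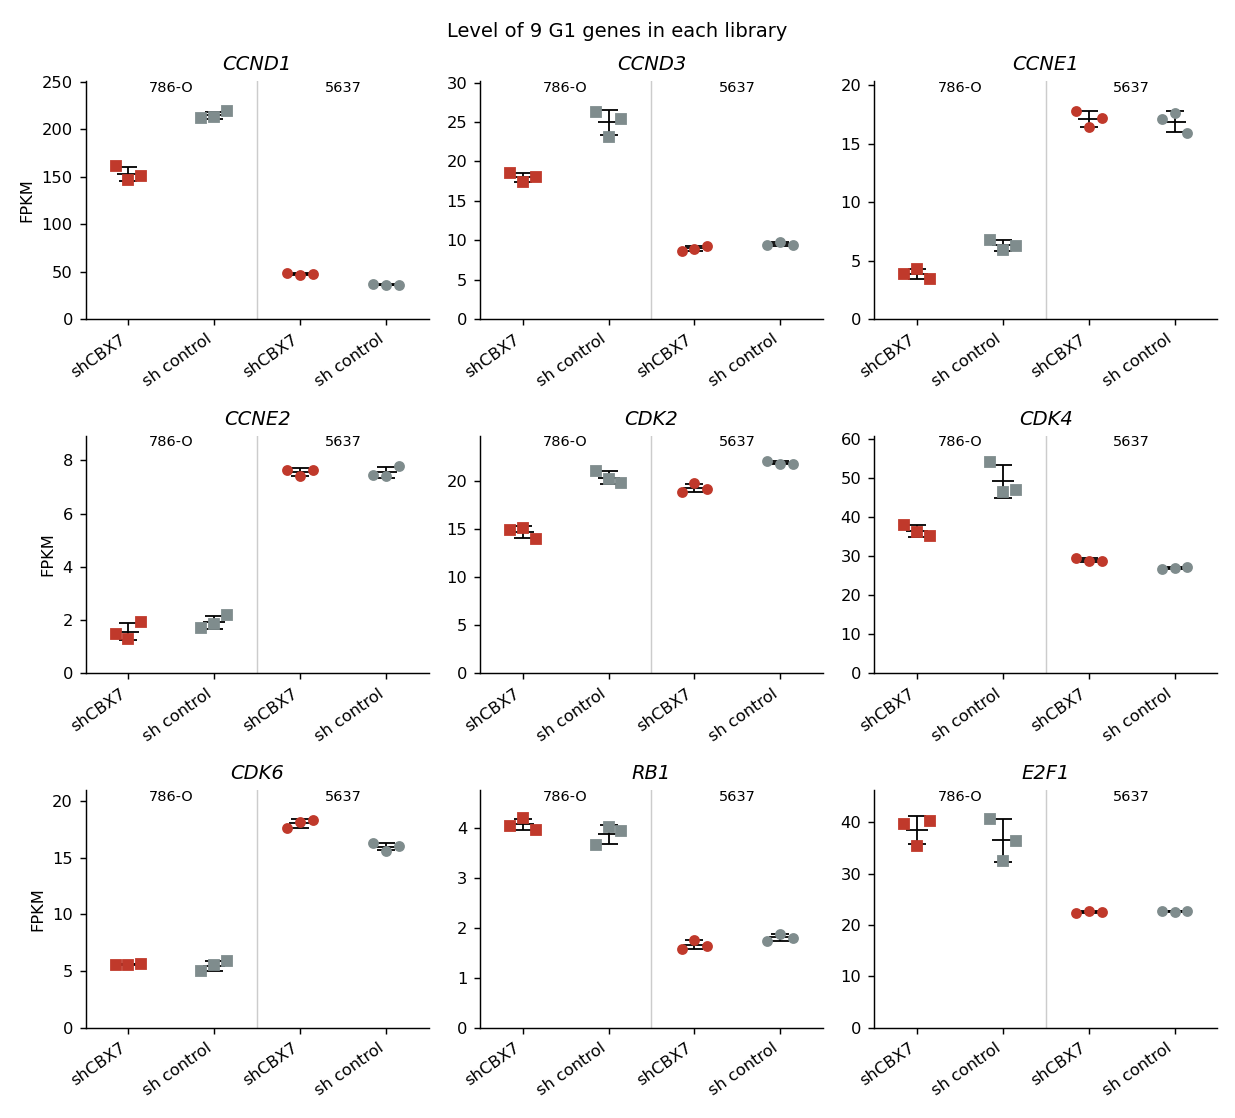
Level in FPKM of the 9 tested G1 genes in each library, with squares for 786-O and circles for 5637, shCBX7 left of sh control, and bars for the mean and SD of 3 libraries. In 786-O the shCBX7 libraries lie below all sh control libraries for CCND1, CCND3, CCNE1, CDK2 and CDK4. In 5637 the shCBX7 libraries lie above all sh control libraries for CCND1, CDK4 and CDK6, and below all of them for CCND3 and CDK2.

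CCND1 encodes cyclin D1, the D cyclin that mitogens induce in most epithelial cells and, in renal cells without VHL, a known target of HIF2. The gene lies on chromosome 11 at 69641087 to 69654474, plus strand (GRCh38, protein coding), and was the member with the highest FPKM in every arm. Its level in 786-O was 161, 147 and 150 FPKM with shCBX7, against 212, 214 and 219 FPKM in sh control cells. Each value rested on at least 11799 reads. The shCBX7 libraries were all lower, and their mean of 153 ± 7.47 FPKM was 71.1% of the sh control mean of 215 ± 3.87 FPKM (SD, n = 3 each). The log2 change was -0.49 (SE 0.0482, limma adjusted p = 0.000138). In 5637 the order was turned round. CCND1 stood at 48.2, 45.9 and 47.0 FPKM with shCBX7, against 36.4, 36.1 and 36.1 FPKM in sh control cells. All shCBX7 libraries were higher, the mean was 130% of that of sh control cells, and the log2 change was 0.37 (SE 0.0223, limma adjusted p = 7.29e-05). The change in 786-O minus the change in 5637, tested as an interaction term in limma with the 12 libraries together, was -0.86 (95% interval -0.97 to -0.75, limma adjusted p = 1.13e-07).

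CCND3, on chromosome 6 at 41934933 to 42050357 on the minus strand, encodes cyclin D3, a D cyclin best known from lymphoid cells. In 786-O it stood at 18.5, 17.3 and 18.0 FPKM with shCBX7, against 26.3, 23.2 and 25.3 FPKM in sh control cells. The arms did not overlap, and CCND3 fell by 0.45 on the log2 scale (SE 0.0587, limma adjusted p = 0.000565), to 72.0% of the sh control mean. Its level in 5637 was 8.66, 8.93 and 9.26 FPKM with shCBX7, against 9.45, 9.74 and 9.36 FPKM in sh control cells. There the arms did not overlap either, but the log2 change of -0.08 (95% interval -0.15 to -0.01, limma adjusted p = 0.066) did not pass. It passed with quantile normalization (limma adjusted p = 0.0253), with median centring (limma adjusted p = 0.0305) and without shCBX7 library 3 (limma adjusted p = 0.0435). The difference between lines was -0.37 (95% interval -0.51 to -0.23, limma adjusted p = 0.00058).

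CCND2, on chromosome 12 at 4273772 to 4305350, encodes cyclin D2 and was all but unread. In 786-O its libraries held 3, 0 and 1 reads with shCBX7, against 0, 2 and 0 reads in sh control cells. In 5637 they held 0, 3 and 2 reads with shCBX7, against 3, 2 and 2 reads in sh control cells. At 3 reads or fewer a library no difference was detectable, and cyclin D2 added next to nothing to the D cyclin messages of either line.

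Summed over the 3 genes, D cyclin message was 179, 164 and 168 FPKM with shCBX7 in 786-O, against 238, 237 and 244 FPKM in sh control cells. CCND1 and CCND3 were lower by like amounts there, so CCND1 made up 89.5% of the sum on average with shCBX7 and 89.6% in sh control cells, and these shares overlapped. In 5637 the sum was 56.9, 54.9 and 56.3 FPKM with shCBX7, against 45.9, 45.9 and 45.5 FPKM in sh control cells. CCND1 took 83.5% to 84.8% of it with shCBX7, against 78.8% to 79.4% in sh control cells, with no overlap. These sums and shares are descriptions and were not tested.

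**Figure D2:**
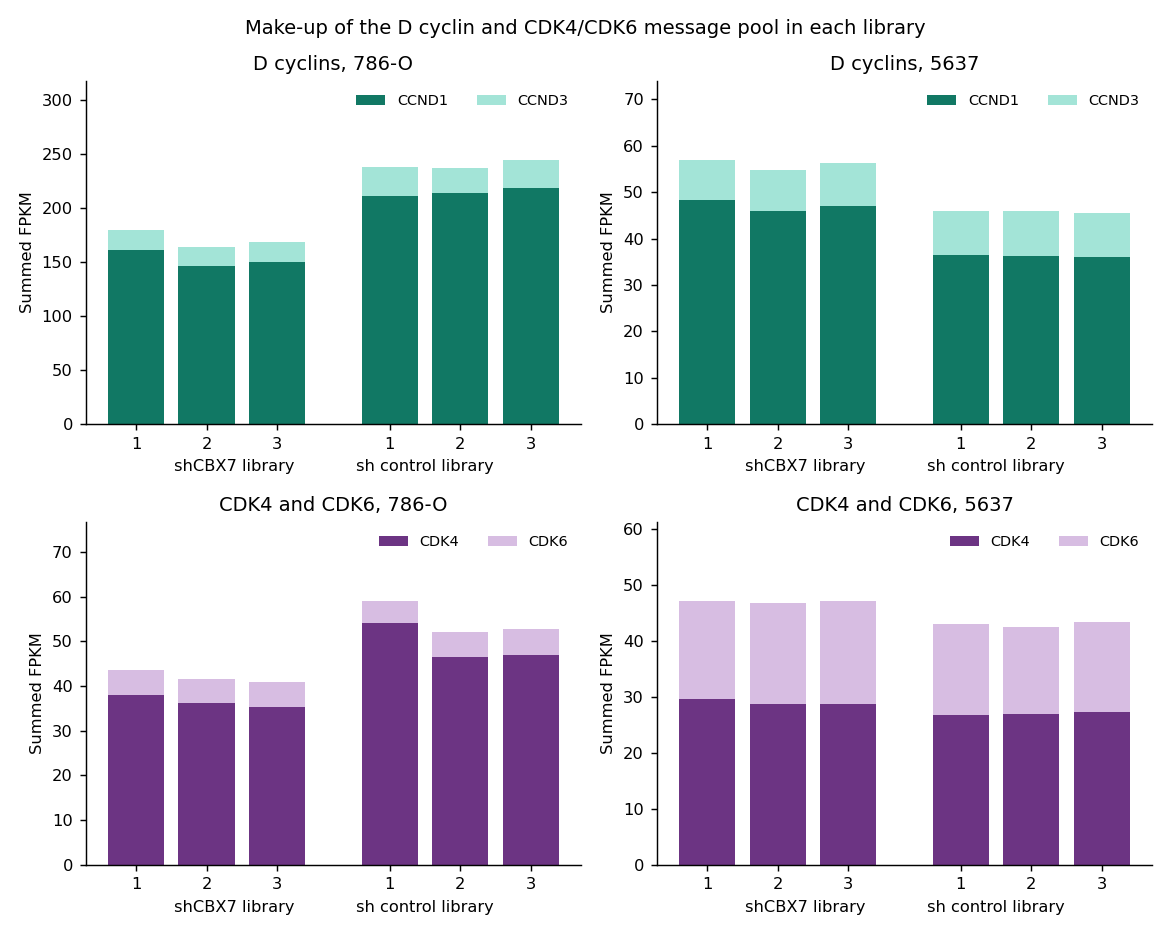
Summed FPKM of CCND1 and CCND3 (upper row) and of CDK4 and CDK6 (lower row) in each library, 1 stacked bar per library, shCBX7 left of sh control. The D cyclin sum is 164 to 179 FPKM with shCBX7 and 237 to 244 FPKM in sh control cells in 786-O, and 54.9 to 56.9 FPKM with shCBX7 and 45.5 to 45.9 FPKM in sh control cells in 5637.

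CDK4, on chromosome 12 at 57747727 to 57756013 on the minus strand, encodes the D cyclin partner with the higher FPKM in both lines. The 786-O libraries gave 38.1, 36.1 and 35.3 FPKM with shCBX7, against 54.0, 46.5 and 46.9 FPKM in sh control cells. All shCBX7 libraries were lower, with sh control library 1 the highest of all, and the log2 change was -0.42 (SE 0.0671, limma adjusted p = 0.00159). In 5637 it stood at 29.6, 28.7 and 28.8 FPKM with shCBX7, against 26.7, 26.9 and 27.4 FPKM in sh control cells. The arms did not overlap, and CDK4 rose by 0.10 on the log2 scale (SE 0.0209, limma adjusted p = 0.00778), to 107% of the sh control mean. Between lines, the difference was -0.52 (95% interval -0.68 to -0.36, limma adjusted p = 0.000106).

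CDK6, on chromosome 7 at 92604921 to 92836594 on the minus strand, encodes the other D cyclin partner. Its level in 786-O was 5.56, 5.55 and 5.67 FPKM with shCBX7, against 5.00, 5.57 and 5.86 FPKM in sh control cells. The arms overlapped, and the log2 change of 0.03 (95% interval -0.12 to 0.17, limma adjusted p = 0.738) did not pass. The 5637 libraries gave 17.6, 18.1 and 18.3 FPKM with shCBX7, against 16.2, 15.6 and 16.0 FPKM in sh control cells. All shCBX7 libraries were higher there, and the log2 change was 0.16 (SE 0.025, limma adjusted p = 0.00205). The difference between lines, -0.14 (95% interval -0.28 to 0.00), did not pass (limma adjusted p = 0.0893), though it did without 786-O sh control library 1 (-0.19, limma adjusted p = 0.00389).

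The ratio of CDK4 to CDK6 message was 6.85, 6.51 and 6.23 with shCBX7 in 786-O, against 10.8, 8.35 and 8.01 in sh control cells. It was lower in every shCBX7 library of 786-O. In 5637 the ratio was 1.57 to 1.68 with shCBX7, against 1.65 to 1.73 in sh control cells, and the arms overlapped. The sum of both kinases was 41.0 to 43.6 FPKM with shCBX7 and 52.1 to 59.0 FPKM in sh control cells in 786-O. In 5637 it was 46.8 to 47.2 FPKM with shCBX7 and 42.5 to 43.4 FPKM in sh control cells, so the sums, like the D cyclins, lay on opposite sides of their controls in the 2 lines.

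CCNE1, on chromosome 19 at 29811898 to 29824308 on the plus strand, encodes cyclin E1, the partner of CDK2. In 786-O it stood at 3.89, 4.28 and 3.45 FPKM with shCBX7, against 6.77, 5.86 and 6.27 FPKM in sh control cells. The arms did not overlap, and its log2 change of -0.58 (SE 0.0797, limma adjusted p = 0.000713) was the lowest among the 9 tested G1 genes. The mean with shCBX7 was 61.5% of the sh control mean, on 157 to 288 reads a library. Its level in 5637 was 17.7, 16.4 and 17.2 FPKM with shCBX7, against 17.1, 17.6 and 15.9 FPKM in sh control cells. Those arms overlapped, with a log2 change of 0.02 (95% interval -0.08 to 0.12, limma adjusted p = 0.732). Between lines, the difference was -0.60 (95% interval -0.81 to -0.40, limma adjusted p = 0.000203).

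CCNE2, on chromosome 8 at 94879770 to 94896678 on the minus strand, encodes cyclin E2. The 786-O libraries gave 1.46, 1.31 and 1.91 FPKM with shCBX7, against 1.70, 1.87 and 2.18 FPKM in sh control cells. The arms overlapped on 96 to 158 reads a library, and the log2 change of -0.19 (95% interval -0.44 to 0.06, limma adjusted p = 0.173) did not pass. In 5637 it stood at 7.66, 7.40 and 7.64 FPKM with shCBX7, against 7.44, 7.43 and 7.79 FPKM in sh control cells, with a log2 change of 0.00 (95% interval -0.06 to 0.07, limma adjusted p = 0.952). The difference between lines, -0.19 (95% interval -0.44 to 0.05), did not pass (limma adjusted p = 0.165), though it did without 786-O shCBX7 library 3 (-0.29, limma adjusted p = 0.0145).

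The summed E cyclin message was 5.35, 5.59 and 5.37 FPKM with shCBX7 in 786-O, against 8.47, 7.73 and 8.45 FPKM in sh control cells, without overlap. In 5637 it was 23.8 to 25.4 FPKM with shCBX7, against 23.7 to 25.0 FPKM in sh control cells, with overlap. The ratio of D to E cyclin message averaged 31.4 with shCBX7 and 29.2 in sh control cells in 786-O, where both sums were lower, and the arms overlapped. In 5637 it averaged 2.27 with shCBX7 and 1.87 in sh control cells, without overlap. The tables of the 2 lines were made separately, so a level in 786-O beside a level in 5637 carries that limit.

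CDK2, on chromosome 12 at 55966769 to 55972784 on the plus strand, encodes the kinase partner of the E cyclins and later of cyclin A. It was the member that fell in both lines. Its level in 786-O was 14.9, 15.1 and 14.0 FPKM with shCBX7, against 21.0, 20.1 and 19.7 FPKM in sh control cells. The 5637 libraries gave 18.8, 19.7 and 19.1 FPKM with shCBX7, against 22.0, 21.7 and 21.8 FPKM in sh control cells. The arms did not overlap in either line. The log2 change was -0.44 in 786-O (SE 0.0504, limma adjusted p = 0.000285) and -0.18 in 5637 (SE 0.0229, limma adjusted p = 0.00111), leaving 72.2% and 88.0% of the sh control mean. The fall was larger in 786-O by 0.27 on the log2 scale, a difference of -0.27 (95% interval -0.38 to -0.15, limma adjusted p = 0.00105).

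RB1, on chromosome 13 at 48303726 to 48599436 on the plus strand, encodes the pocket protein that the G1 kinases inactivate. In 786-O it stood at 4.04, 4.19 and 3.97 FPKM with shCBX7, against 3.66, 4.02 and 3.94 FPKM in sh control cells. The arms overlapped, with a log2 change of 0.06 (95% interval -0.07 to 0.19, limma adjusted p = 0.428). Its level in 5637 was 1.58, 1.76 and 1.64 FPKM with shCBX7, against 1.74, 1.88 and 1.80 FPKM in sh control cells. Those arms overlapped as well, with a log2 change of -0.08 (95% interval -0.18 to 0.02, limma adjusted p = 0.183). Between lines, the difference of 0.14 (95% interval 0.00 to 0.27) did not pass (limma adjusted p = 0.077), but did with quantile normalization (limma adjusted p = 0.0244) and median centring (limma adjusted p = 0.0263). A message at this level says nothing of whether it makes a working protein.

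E2F1, on chromosome 20 at 33675683 to 33686404 on the minus strand, encodes an activator E2F that RB1 restrains. The 786-O libraries gave 39.6, 35.3 and 40.3 FPKM with shCBX7, against 40.7, 32.4 and 36.4 FPKM in sh control cells. In 5637 it stood at 22.3, 22.8 and 22.5 FPKM with shCBX7, against 22.7, 22.5 and 22.7 FPKM in sh control cells. The arms overlapped in both lines. The log2 change was 0.08 in 786-O (95% interval -0.13 to 0.28, limma adjusted p = 0.506) and -0.01 in 5637 (95% interval -0.05 to 0.04, limma adjusted p = 0.744). The difference between lines was 0.08 (95% interval -0.13 to 0.30, limma adjusted p = 0.496). The ratio of E2F1 to RB1 message averaged 9.47 with shCBX7 and 9.48 in sh control cells in 786-O, and 13.6 with shCBX7 and 12.5 in sh control cells in 5637, with overlap in both.

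**Figure D3:**
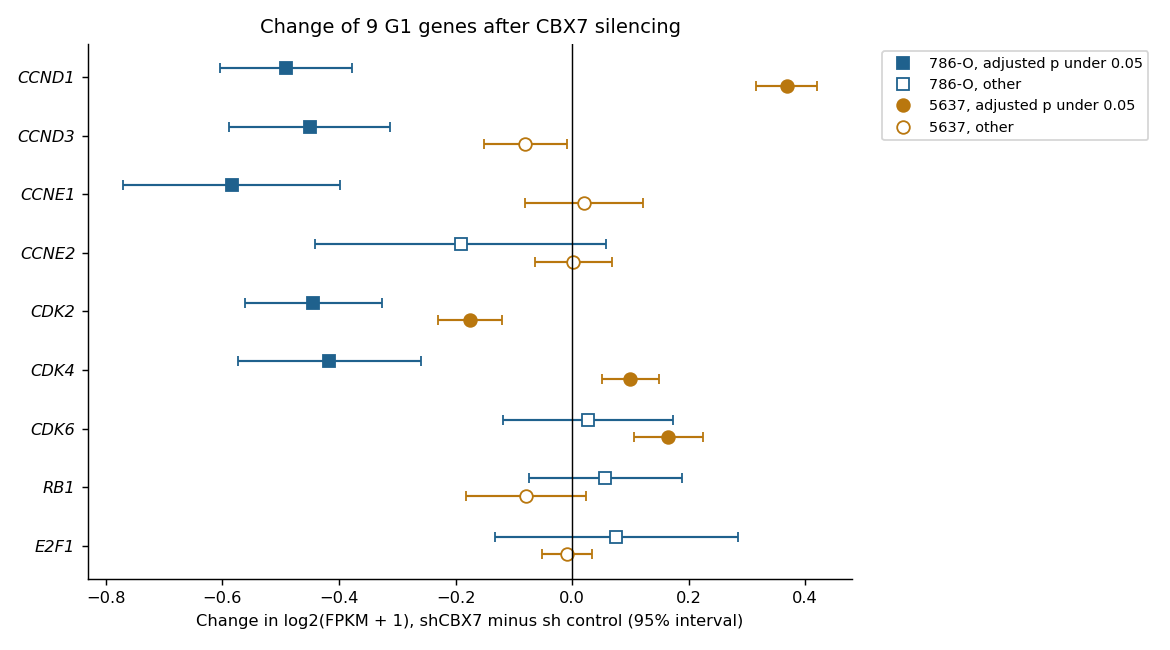
Change in log2(FPKM + 1), shCBX7 minus sh control, of the 9 tested G1 genes, with limma's 95% interval (squares 786-O, circles 5637, filled where the adjusted p was under 0.05). CCND1 lies at -0.49 in 786-O and 0.37 in 5637, CDK4 at -0.42 and 0.10, and CDK2 below 0 in both lines.

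Between the lines, the change of 5 of 9 tested G1 genes differed (CCND1, CCND3, CCNE1, CDK2 and CDK4), each lower in 786-O. Over all 12777 genes of that fit limma called 53.3%, 24.3% higher in 786-O and 29.0% lower, so 5 of 9 is near the background. No G1 gene was called higher in 786-O, and at an unadjusted p under 0.05 it was 1, RB1. Among 10359 genes tested in both lines, 1266 (12.2%) were called in both in opposite directions, as were 2 of the 9 G1 genes, CCND1 and CDK4. The arms did not overlap for 5 of 9 G1 genes in each line, where this held for 60.3% of all tested genes in 786-O and 56.4% in 5637. An exact two-sided permutation test of 3 against 3 cannot go below p = 0.1, which each of these genes reached.

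Within sh control 786-O cells the levels ran CCND1, CDK4, E2F1, CCND3, CDK2, CCNE1, CDK6, RB1, CCNE2 and CCND2, and no neighbours overlapped, although the lowest CCNE1 library and the highest CDK6 library both stood at 5.86 FPKM. With shCBX7, E2F1 (38.4 ± 2.69 FPKM) and CDK4 (36.5 ± 1.42 FPKM) overlapped, as did RB1 (4.07 ± 0.115 FPKM) and CCNE1 (3.87 ± 0.413 FPKM; SD, n = 3 each). CCNE1 thus stood below CDK6 with shCBX7 in 786-O, at 5.59 FPKM for CDK6, and above it in sh control cells, at 6.30 FPKM for CCNE1 and 5.48 FPKM for CDK6. In sh control 5637 cells the order was CCND1, CDK4, E2F1, CDK2, CCNE1, CDK6, CCND3, CCNE2, RB1 and CCND2. There CCNE1 and CDK6 were the neighbours that overlapped, with and without shCBX7. These orders, like ratios between genes, rest on the annotated gene lengths. In summed reads CDK6 exceeded CCND1 in sh control 5637 cells (15896 against 14224), but not with shCBX7 (18095 against 18508).

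Reads from genes on opposite strands can be mixed where counting ignores strand, and the setting used for these tables is not given in the sources used here. CCND1 overlaps LTO1, which stood at 4.10 FPKM with shCBX7 and 3.56 FPKM in sh control 786-O cells, far below CCND1 and in the other direction. CCNE2 overlaps INTS8, whose 6.01 FPKM with shCBX7 and 7.85 FPKM in sh control 786-O cells exceeded CCNE2 itself. In 5637 INTS8 stood at 11.9 FPKM with shCBX7 and 10.8 FPKM in sh control cells. NDUFAF6 also overlaps CCNE2, and at 3.70 FPKM with shCBX7 and 3.67 FPKM in sh control 786-O cells it exceeded CCNE2 too. In 5637 NDUFAF6 stood at 4.61 FPKM with shCBX7 and 5.04 FPKM in sh control cells. The values of CCNE2 are uncertain for this reason. CDK4 overlaps MARCH9, which stood at 7.82 FPKM with shCBX7 and 9.20 FPKM in sh control 786-O cells, far below CDK4 and in the same direction. It also overlaps TSPAN31, at 3.38 FPKM with shCBX7 and 2.92 FPKM in sh control 786-O cells. CDK6 overlaps the antisense RNA AC002454.1, at 1.86 FPKM with shCBX7 and 1.198 FPKM in sh control 786-O cells, and RB1 overlaps RCBTB2, at 0.545 FPKM with shCBX7 and 1.42 FPKM in sh control 786-O cells.

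RefSeq promoter windows (GRCh38.p14) were at hand for 6 members, CCND3, CCNE1, CDK4, CDK6, RB1 and E2F1. The windows of CCND3, CDK4 and RB1 lie inside the gene, past the start given above. For these genes the bases before that start were not searched. The 250 bases before each start site were searched on both strands for 4 spellings of the E2F motif, TTTCCCGC, TTTGGCGC, TTTCGCGC and TTTGCCGC. Of these 6, E2F1 was the member with a match, and it had 2. For matches, plus means the strand of the gene. They were TTTGCCGC on the minus strand, first base 33 before the start, and TTTGGCGC on the plus strand, first base 20 before it. At least 1 match was present in 2.79% of all 35116 windows of this length. The windows of E2F1, whose level did not pass, and of CCNE1, which had the lowest log2 change, are shown 5′ to 3′ along the gene, with matches in capitals.
E2F1, chr20:33686386-33686635, minus strand: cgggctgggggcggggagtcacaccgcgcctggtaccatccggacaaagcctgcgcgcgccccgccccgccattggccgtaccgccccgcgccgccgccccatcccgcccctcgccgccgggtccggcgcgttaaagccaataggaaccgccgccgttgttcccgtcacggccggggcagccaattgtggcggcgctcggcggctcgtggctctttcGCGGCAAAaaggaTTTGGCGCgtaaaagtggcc
CCNE1, chr19:29811741-29811990, plus strand: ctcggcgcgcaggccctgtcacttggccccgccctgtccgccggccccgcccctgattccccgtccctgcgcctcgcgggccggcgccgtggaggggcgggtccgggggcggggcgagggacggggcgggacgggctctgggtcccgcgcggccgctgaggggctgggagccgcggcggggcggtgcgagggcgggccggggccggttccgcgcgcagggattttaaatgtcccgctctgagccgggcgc
The CCNE1 window held none of the 4 spellings, which says only that these letters are not in these 250 bases. A match is a run of letters and not a measured binding site.

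The other genes of the G1 pathway were grouped in 7 lists, whose counts stand beside the same background of 51.0% called in 786-O and 44.5% in 5637. The share called was 79.2% in 786-O and 58.3% in 5637 for the E2F target genes. For the CDK inhibitors 5 of 5 were called in 786-O and 6 of 7 in 5637, and for the later cyclins and CDK1 5 of 5 and 3 of 5. In the other E2F and DP factors, the pocket proteins and MuvB subunits, the kinase activators and the degradation and assembly genes it was 57.1% to 66.7% in 786-O and 33.3% to 44.4% in 5637, near or below the background in 5637. Among 24 E2F target genes of G1/S, the genes of DNA replication and nucleotide supply that E2F factors switch on, 19 fell in 786-O, with a median log2 change of -0.44. In that line none was called higher, also 0 at an unadjusted p under 0.05 and 0 by voom. In 5637, 9 rose and 5 fell, with a median of 0.02. The change differed between lines for 21 of 24, each lower in 786-O, with a median difference of -0.54 against -0.02 over all genes. These sat beside an E2F1 level that did not pass in either line.

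TK1, thymidine kinase of the nucleotide salvage pathway, stood at 61.2, 58.7 and 63.1 FPKM with shCBX7 in 786-O, against 200.3, 167 and 175 FPKM in sh control cells. All shCBX7 libraries were far lower, with a log2 change of -1.55 (SE 0.0717, limma adjusted p = 4.99e-06). In 5637 TK1 also fell, by 0.18 on the log2 scale (limma adjusted p = 0.0008). MCM6, a subunit of the replicative helicase, stood at 11.4, 11.0 and 11.7 FPKM with shCBX7 in 786-O, against 23.7, 25.1 and 24.6 FPKM in sh control cells. It fell by 1.04 on the log2 scale (SE 0.0468, limma adjusted p = 4.44e-06). UNG, a glycosylase that removes uracil from DNA, differed in direction. It fell by 1.13 on the log2 scale in 786-O (limma adjusted p = 5.08e-06) and rose by 0.19 in 5637 (limma adjusted p = 0.00183), a difference of -1.33 (SE 0.0575, limma adjusted p = 1.06e-08). CDT1, which licenses origins, fell by 0.33 in 786-O (limma adjusted p = 0.0266) and by 0.28 in 5637 (limma adjusted p = 0.00126).

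Of the 21 E2F target genes with a RefSeq window, 12 (57.1%) held a match to the motif letters, against 928 of 27305 genes (3.40%) with a window. Many such genes became known as E2F targets through such sites, so this count is not independent of the list. Stretches of 60 bases round the first match in MCM6, UNG and CDT1 show the letters in place, 5′ to 3′ along the gene with matches in capitals.
MCM6, chr2:135876562-135876621, minus strand: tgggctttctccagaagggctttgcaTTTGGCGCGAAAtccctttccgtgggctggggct
UNG, chr12:109098083-109098142, plus strand: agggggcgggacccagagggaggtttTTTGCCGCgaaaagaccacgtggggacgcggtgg
CDT1, chr16:88803728-88803787, plus strand: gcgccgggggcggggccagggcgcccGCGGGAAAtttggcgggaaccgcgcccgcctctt
With plus again the strand of the gene, the capitals in MCM6 are a plus-strand TTTGGCGC that overlaps a minus-strand TTTCGCGC. UNG holds TTTGCCGC on the plus strand and CDT1 TTTCCCGC on the minus strand.

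**Figure D4:**
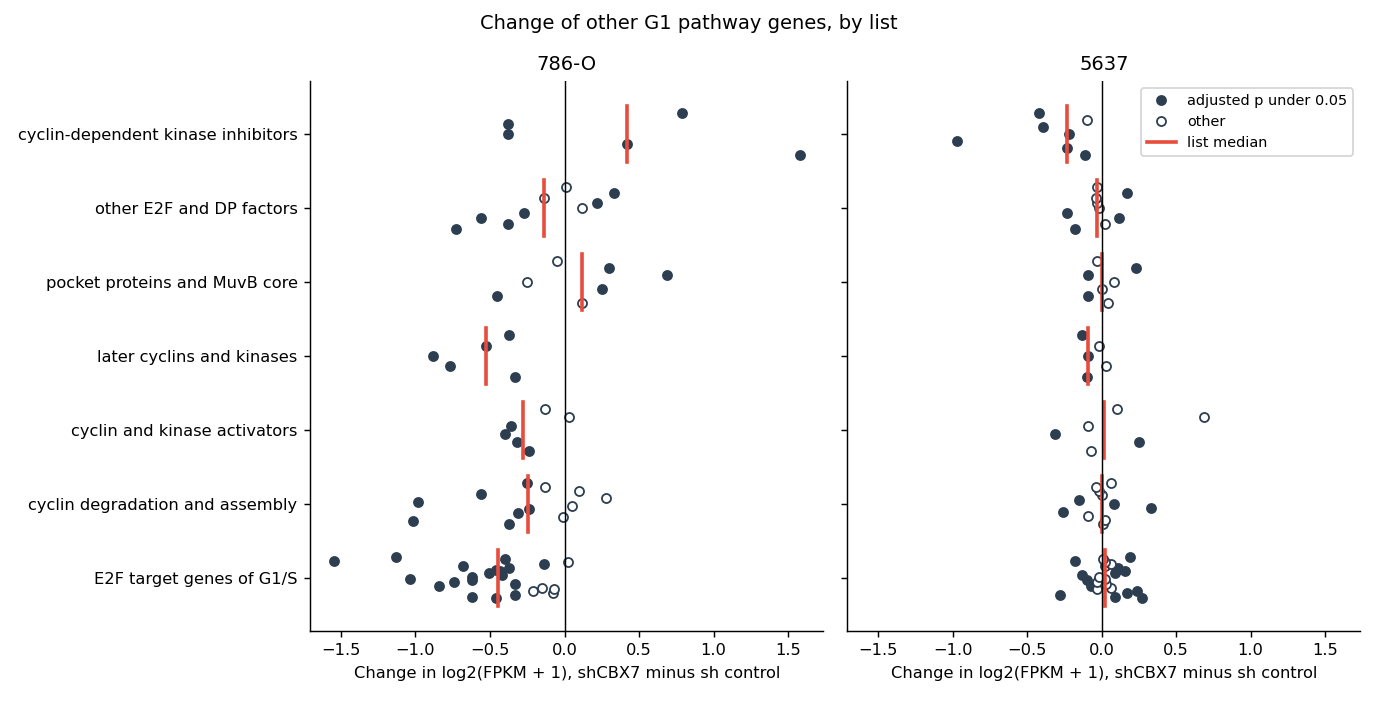
Change in log2(FPKM + 1), shCBX7 minus sh control, of each tested gene of the 7 lists (points, filled where limma's adjusted p was under 0.05) with the list median as a red line, 786-O left and 5637 right. The E2F target genes have a median of -0.44 in 786-O and 0.02 in 5637, and the CDK inhibitors 0.42 in 786-O and -0.23 in 5637.

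Among the CDK inhibitors, CDKN1A, CDKN1B and CDKN2D rose in 786-O and fell in 5637. In 786-O, 5 of 7 could be tested, 3 rose and 2 (CDKN1C and CDKN2C) fell, with a median log2 change of 0.42. CDKN1A, which encodes p21, the inhibitor that p53 induces, stood at 142, 136 and 140 FPKM with shCBX7, against 51.0, 42.0 and 45.5 FPKM in sh control 786-O cells. Every shCBX7 library was above every sh control library, and the log2 change was 1.58 (SE 0.0705, limma adjusted p = 4.37e-06). CDKN2D, an INK4 inhibitor of CDK4 and CDK6, rose by 0.79 on the log2 scale in 786-O (limma adjusted p = 8.35e-06). CDKN1B, which encodes p27, rose by 0.42 (limma adjusted p = 0.00035).

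In 5637, 6 of 7 CDK inhibitors fell, with a median log2 change of -0.23. The lowest change was that of CDKN1C, at 1.90, 0.712 and 0.606 FPKM with shCBX7, against 1.67, 4.16 and 3.35 FPKM in sh control cells. Its arms overlapped, and it fell by 0.97 on the log2 scale (limma adjusted p = 0.0336). CDKN1C fell in 786-O as well, by 0.38 (limma adjusted p = 0.00519). CDKN2D stood at 19.8, 21.7 and 21.6 FPKM with shCBX7, against 27.0, 30.0 and 28.7 FPKM in sh control 5637 cells. It fell by 0.42 on the log2 scale (limma adjusted p = 0.000616), while CDKN1B fell by 0.23 (limma adjusted p = 0.000406) and CDKN1A by 0.11 (limma adjusted p = 0.0032). None was called higher there, also 0 at an unadjusted p under 0.05 and 0 by voom. CDKN2A, the INK4A/ARF gene and a classic Polycomb target, stood at 63.6, 65.7 and 65.4 FPKM with shCBX7, against 75.1, 76.6 and 74.8 FPKM in sh control 5637 cells, a fall of 0.22 on the log2 scale (limma adjusted p = 0.000358). In 786-O CDKN2A reached at most 0.0259 FPKM and CDKN2B was listed at 0 in every library, so neither could be tested. Between lines, the difference was 1.69 for CDKN1A (SE 0.0767, limma adjusted p = 1.4e-08), 1.22 for CDKN2D (limma adjusted p = 3.89e-08) and 0.65 for CDKN1B (limma adjusted p = 1.4e-06).

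The later cyclins and CDK1, which act after G1, fell in 786-O in 5 of 5 cases, with a median log2 change of -0.53. CCNB2 fell by 0.88 on the log2 scale (limma adjusted p = 1.35e-05) and CCNB1 by 0.77 (limma adjusted p = 1.41e-05), both B cyclins of mitosis. CCNF fell by 0.53 (limma adjusted p = 0.000372). In 5637, 3 of 5 fell, with a median of -0.09. CDK1, the mitotic kinase, fell by 0.13 (limma adjusted p = 0.00934), CCNA2 by 0.10 (limma adjusted p = 0.0108) and CCNB2 by 0.09 (limma adjusted p = 0.00559). The change was lower in 786-O for all 5, by 0.22 to 0.80 on the log2 scale.

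Of 9 other E2F and DP factors, 2 rose and 4 fell in 786-O (median -0.14), and 2 rose and 2 fell in 5637 (median -0.03). TFDP1, the dimer partner of E2F factors, rose in both lines, by 0.33 on the log2 scale in 786-O (limma adjusted p = 0.00042) and 0.17 in 5637 (limma adjusted p = 0.00332). E2F2, an activator E2F, fell by 0.73 in 786-O (limma adjusted p = 0.000589) and by 0.18 in 5637 (limma adjusted p = 0.0371). E2F4, a repressor E2F, fell by 0.56 in 786-O (limma adjusted p = 0.000116) and rose by 0.12 in 5637 (limma adjusted p = 0.00599). E2F5, another repressor E2F, fell by 0.27 in 786-O (limma adjusted p = 0.0043) and by 0.23 in 5637 (limma adjusted p = 0.00231).

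Of 7 pocket proteins and MuvB core subunits, which repress cell cycle genes in quiescent cells, 3 rose and 1 fell in 786-O (median 0.12), and 1 rose and 2 fell in 5637 (median 0.00). RBBP4, a histone-binding subunit shared with other chromatin complexes, stood at 19.2, 18.5 and 17.6 FPKM with shCBX7, against 10.0, 11.3 and 11.8 FPKM in sh control 786-O cells. It rose by 0.69 on the log2 scale (limma adjusted p = 0.000127). LIN52 fell by 0.45 in 786-O (limma adjusted p = 0.00293), and LIN54 rose by 0.25 (limma adjusted p = 0.0153), a call that ended without shCBX7 library 3 (limma adjusted p = 0.0557). RBL1, which encodes the RB1 relative p107, rose by 0.30 in 786-O (limma adjusted p = 0.0409) and by 0.23 in 5637 (limma adjusted p = 0.000964). The 5637 calls of RBBP4 (limma adjusted p = 0.0497) and LIN52 (limma adjusted p = 0.0337), both at -0.09, ended under 7 alternatives each.

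Of 6 activators of cyclin-dependent kinases, 4 fell in 786-O (median -0.28), and 1 rose and 1 fell in 5637 (median 0.02). CDC25A, the phosphatase that activates CDK2 in G1, fell by 0.32 on the log2 scale in 786-O (limma adjusted p = 0.00442) and rose by 0.25 in 5637 (limma adjusted p = 0.000612). CDC25B fell in both lines, by 0.40 in 786-O (limma adjusted p = 0.000189) and 0.31 in 5637 (limma adjusted p = 0.000159). CDC25C fell by 0.36 in 786-O (limma adjusted p = 0.00155).

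Of 12 genes of cyclin degradation and kinase assembly, 7 fell in 786-O (median -0.25). In 5637 11 were tested, of which 2 rose and 2 fell (median 0.00). CDC37, the cochaperone that hands CDK4 to HSP90, stood at 59.8, 57.2 and 58.1 FPKM with shCBX7, against 131, 112 and 116 FPKM in sh control 786-O cells. It fell by 1.02 on the log2 scale (limma adjusted p = 1.54e-05). DDB1, the adaptor of CUL4 ubiquitin ligases, stood at 9.10, 8.87 and 9.18 FPKM with shCBX7, against 18.3, 19.1 and 19.2 FPKM in sh control 786-O cells. It fell by 0.98 there (limma adjusted p = 4.81e-06) and by 0.15 in 5637 (limma adjusted p = 0.000909). AMBRA1, the receptor that sends D cyclins to degradation, fell by 0.37 in 786-O (limma adjusted p = 0.00159). CUL1, the scaffold of SCF ligases, fell by 0.24 in 786-O (limma adjusted p = 0.00467) and rose by 0.33 in 5637 (limma adjusted p = 0.000431). CKS2, a small CDK-binding protein, fell by 0.31 in 786-O (limma adjusted p = 0.00185) and by 0.26 in 5637 (limma adjusted p = 0.000915).

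The genes with the pattern most like that of CCND1 were sought among 9174 genes by Pearson correlation over the 12 libraries, each value taken relative to the sh control mean of its line. They were SOGA1 (r = 0.997), NFKB1 (r = 0.995) and PARVA (r = 0.994). NFKB1, a subunit of the transcription factor NF-kappa-B, had a log2 change of -0.53 in 786-O and 0.34 in 5637. For CDK6 they were WDR43 (r = 0.942), LSM1 (r = 0.934) and ZWILCH (r = 0.931), and for E2F1 B4GALT2 (r = 0.953) and PTGES2 (r = 0.936) were among them. For CCNE2 they were MBD6 (r = 0.943), SNORD14E (r = 0.918) and PRKAR2B (r = 0.908). The libraries share their line and arm, so these values are descriptions. E2F1 and CCNE2 did not pass in either line, so for them the likeness can rest on scatter between libraries. For CCND2, with 0 to 3 reads a library, no such genes are named.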

How the data were processed

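RNA-seq values of 12 libraries were analysed, 3 shCBX7 and 3 sh control in each of 786-O and 5637. The authors deposited FPKM values, with 1 table of genes by libraries for 786-O and another for 5637, per the file headers. Library preparation used NEBNext Ultra Directional reagents, per the labels' protocols. How reads were aligned, counted and assigned to strands is not given in the sources used here. The build in the submitters' processing notes is mm10, a mouse build, but all 58735 genes of the 786-O table lie at GENCODE release 29 (GRCh38) coordinates, which are used here. Of the 5637 symbols, 29809 matched a single 786-O gene.

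Samples were grouped by title, cell line and genotype labels. Titles of some 5637 controls carry another number, and these columns could be tied to their group only, so control numbers of 5637 only name columns. No pair of libraries held identical values (15 pairs per line). The low FPKM are whole multiples of 1 read (tolerance 0.01) for 58735 genes (100.0%) in 786-O and 28077 (93.9%) in 5637. RB1 in 5637 was not among them.

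Genes averaging 0.5 FPKM or more were tested on log2(FPKM + 1) with limma 3.58.1 (R 4.3.3; lmFit, eBayes with a mean-variance trend), within each line and for the difference between lines, and called at a Benjamini-Hochberg adjusted p under 0.05. These fits were tested on simulated data with known changes. Alternatives were a pseudocount of 0.1, no filter, quantile normalization, median centring, no trend, a replicate block, voom on recovered reads (5807 of 11618 genes called in 5637, 7248 of 13220 in 786-O), and each library left out. Named genes are the members, CBX7, and up to 3 called genes with the smallest p per list and line. Other genes, such as those overlapping a member, CDKN1C, CDKN2A and CDKN2B in 786-O and LAPTM5, were named after their values were seen. The members and lists were chosen with earlier results of these data known. Sequences are from RefSeq (GRCh38.p14). One of the genes whose pattern was most like that of E2F1 is not reported here.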

Additional observations from a re-analysis of the deposited data

Results flagged for a closer look

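For 5 of the 9 tested G1 genes, the shCBX7 change differed between lines in limma's interaction test. The change in 786-O minus the change in 5637 was -0.86 for CCND1, -0.60 for CCNE1, -0.52 for CDK4, -0.37 for CCND3 and -0.27 for CDK2, on the log2 scale (limma adjusted p from 1.13e-07 for CCND1 to 0.00105 for CDK2). CCND1 and CDK4 were lower in 3 of 3 shCBX7 libraries of 786-O and higher in 3 of 3 of 5637. CDK2 was lower in 3 of 3 in both lines. CBX7 itself also differed, by -0.22 (limma adjusted p = 0.0268), a call that ended with median centring (limma adjusted p = 0.0548) and without any 1 of 5 libraries (5637 shCBX7 library 3, 5637 sh control library 1 or 2, 786-O shCBX7 library 2 or 786-O sh control library 2; limma adjusted p from 0.0600 to 0.0656). The part of the CBX7 difference in these results was not tested.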

How the results depend on the processing

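The 5 G1 genes called in 786-O, the 4 called in 5637 and the 5 whose change differed between lines stayed called, in the same direction, in every alternative run. With the replicate number as a block limma called 6723 genes in 786-O and 4942 in 5637, and the block changed no call of a G1 gene. In 5637 the control numbers only name columns, so the block there cannot show the effect of a shared batch. Same-numbered libraries deviated together only weakly (r = 0.083, 0.077 and 0.057 in 786-O, where every library correlated best with its own number, and 0.023, -0.031 and -0.007 in 5637), so the libraries share a number, not a pairing that the labels give. Leaving out a library gave 5704 to 6734 calls in 786-O, 4678 to 5123 in 5637 and 6241 to 7126 for the difference between lines. Directions turned only for changes near 0 that had not passed. In 5637, CCNE2 went to -0.014 with quantile normalization and -0.012 with median centring, and ranged from -0.008 to 0.023 with a library left out. CCNE1 in 5637 ranged from -0.020 to 0.049, CDK6 in 786-O from -0.026 to 0.070 and E2F1 in 786-O from -0.005 to 0.155. The cause was not tested. Median centring turned the split of calls in 5637, 3094 higher and 2557 lower, into 2767 higher and 2885 lower, and that of the difference between lines, 3101 higher and 3707 lower in 786-O, into 3535 higher and 3345 lower. In 786-O it turned 3271 higher and 3465 lower into 3364 higher and 3353 lower. It shifted the median of all genes by no more than 0.035 in any comparison. In voom, 8 G1 genes of 5637 had a value, without RB1. CCNE2 in 786-O, at 96 to 158 reads a library, and CCND2 are limited by depth.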
